A study of Mus musculus with 2 samples.

Results

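The insulin-like growth factor axis was followed in retinal endothelial cells through 8 genes: the receptors Igf1r and Insr, the ligands Igf1 and Igf2, and the binding proteins Igfbp3, Igfbp4, Igfbp5 and Igfbp7. The members were chosen by gene symbol, and all 8 had a row in both gene tables, among 22687 symbols at postnatal day (P) 6 and 21736 at P15. Retinas of wild-type C57BL/6 pups were sorted by FACS for cells with CD31, found on endothelium, and without CD45, found on blood cells, and 1 droplet library was sequenced at P6 and 1 at P15. Levels count unique molecular identifiers (UMIs), the tags that let amplified copies of 1 mRNA be counted once, and are given as UMIs of a gene per 1000000 UMIs of the same cells (CPM). Neither library came from treated or genetically altered mice, and the number of animals behind each library was not given in the sources used here.

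In this pathway the secreted growth factors IGF1 and IGF2 bind the receptor tyrosine kinase IGF1R, and the closely related insulin receptor binds insulin and, less tightly, the growth factors. Both receptors signal through docking proteins, phosphoinositide 3-kinase (PI3K) and AKT, which holds FoxO transcription factors out of the nucleus. The secreted binding proteins hold the ligands outside the cell and are themselves cut by proteases, whereas IGFBP7 binds the growth factors only weakly and is known as a matrix protein of blood vessels. In the developing retina, IGF1 is known to permit vessel growth driven by vascular endothelial growth factor.

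At P6 13958124 UMIs were counted in 1984 barcodes, and at P15 11589641 UMIs in 2141 barcodes. Levels were taken over 1585 P6 and 1673 P15 cells, called kept cells, that passed the quality filter of the study or had a cluster label, with medians of 5316 and 4300 UMIs per cell. At least 3 of 8 endothelial markers were found in 99.3% of kept P6 cells and 99.2% of kept P15 cells. Of the kept cells, 1560 at P6 but only 438 at P15 had a label among the 9 clusters named by the study, because the copy of the labels used here holds only part of the P15 cells. The P15 Venous, Arterial and Proliferative clusters therefore held 2, 11 and 14 cells. The libraries shared 7 barcodes, of which 2 were kept in both. Every age is 1 library, so age and library cannot be told apart, no test across samples was possible, and the 95% intervals given here cover counting error only. Fewer cells that make an mRNA and less of it in each cell cannot be told apart in a summed level.

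Igf1r, Igfbp3 and Igfbp4, the abundant members that differed most between the ages, are shown by the 250 bases before their RefSeq start sites. Sequences are from RefSeq on GRCm38.p6, in the direction of transcription, and capitals mark exact matches to the TATA box letters TATAAA, the related run TATATA or the GC box letters GGGCGG, all searched on both strands, as was ACGTG. The Igf1r window lies at chr7:67952007-67952256 on the plus strand, the Igfbp3 window at chr11:7213924-7214173 on the minus strand, and the Igfbp4 window at chr11:99040994-99041243 on the plus strand.

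Igf1r: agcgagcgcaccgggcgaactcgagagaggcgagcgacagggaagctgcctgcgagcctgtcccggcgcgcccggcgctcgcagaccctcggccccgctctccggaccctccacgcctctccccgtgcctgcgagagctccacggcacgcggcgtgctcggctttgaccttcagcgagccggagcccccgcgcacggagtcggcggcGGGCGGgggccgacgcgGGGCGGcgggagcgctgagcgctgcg
Igfbp3: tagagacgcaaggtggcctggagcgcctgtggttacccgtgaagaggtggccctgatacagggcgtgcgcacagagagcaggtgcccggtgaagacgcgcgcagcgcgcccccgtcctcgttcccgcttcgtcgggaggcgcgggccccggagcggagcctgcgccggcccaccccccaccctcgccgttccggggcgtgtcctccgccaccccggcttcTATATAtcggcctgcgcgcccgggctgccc
Igfbp4: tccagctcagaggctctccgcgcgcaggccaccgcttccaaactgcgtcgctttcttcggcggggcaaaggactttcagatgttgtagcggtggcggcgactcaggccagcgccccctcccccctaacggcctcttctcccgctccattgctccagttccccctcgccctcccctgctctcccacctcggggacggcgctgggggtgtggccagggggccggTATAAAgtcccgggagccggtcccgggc

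The Igfbp3 window held TATATA from 30 to 25 bases before the start, and the Igfbp4 window held TATAAA from 28 to 23 bases before it. The Igf1r window held neither, but held the GC box letters GGGCGG from 43 to 38 and from 26 to 21 bases before the start. Among all 32536 mouse windows of this length, 12.3% held TATAAA, 5.01% TATATA and 33.0% GGGCGG. The letters ACGTG, the core of the hypoxia response element, were found in 16.7% of all windows and in none of these 3. The windows were rich in G and C, at 77.6% for Igf1r, 73.2% for Igfbp3 and 69.2% for Igfbp4 against a median of 52.4% over all windows, with 42, 32 and 22 CpG pairs against a median of 6. No exon or transcript of GENCODE M21 overlapped any of the 3 windows, and the Igf1r gene of that annotation starts downstream of the RefSeq start. These matches describe the letters of the windows and say nothing about factors bound there.

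The same annotation of GRCm38 places Igf1r at chromosome 7:67952827-68233668 on the plus strand and Insr at chromosome 8:3122061-3279617 on the minus strand. Igf1 lies at chromosome 10:87858265-87937042 on the plus strand and Igf2 at chromosome 7:142650766-142666816 on the minus strand. Igfbp3 lies at chromosome 11:7206086-7213923 on the minus strand, Igfbp4 at chromosome 11:99041244-99054392 on the plus strand, Igfbp5 at chromosome 1:72857932-72874884 on the minus strand and Igfbp7 at chromosome 5:77349240-77408041 on the minus strand.

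Between the ages, Igf1r was higher at P15 while Igfbp3 and Igfbp4 were lower. Insr and Igfbp7 lay close to the median gene, and Igf1, Igf2 and Igfbp5 were found in under 2% of kept cells at either age. Of the 6 members with at least 50 UMIs over both libraries, 1 was at least 1.5-fold higher at P15, as were 19.7% of the 11274 genes with that many UMIs. Another 3 were at least 1.5-fold lower (Igf1, Igfbp3 and Igfbp4), as were 12.6% of genes. The P15/P6 ratio of the median gene was 1.09. When the libraries were scaled by the median of gene ratios, the share of calls that were higher moved from 60.9% to 42.8%, and each P15/P6 ratio was divided by 1.13. The plot of member levels and shares by age shows these differences.

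**Figure D1:**
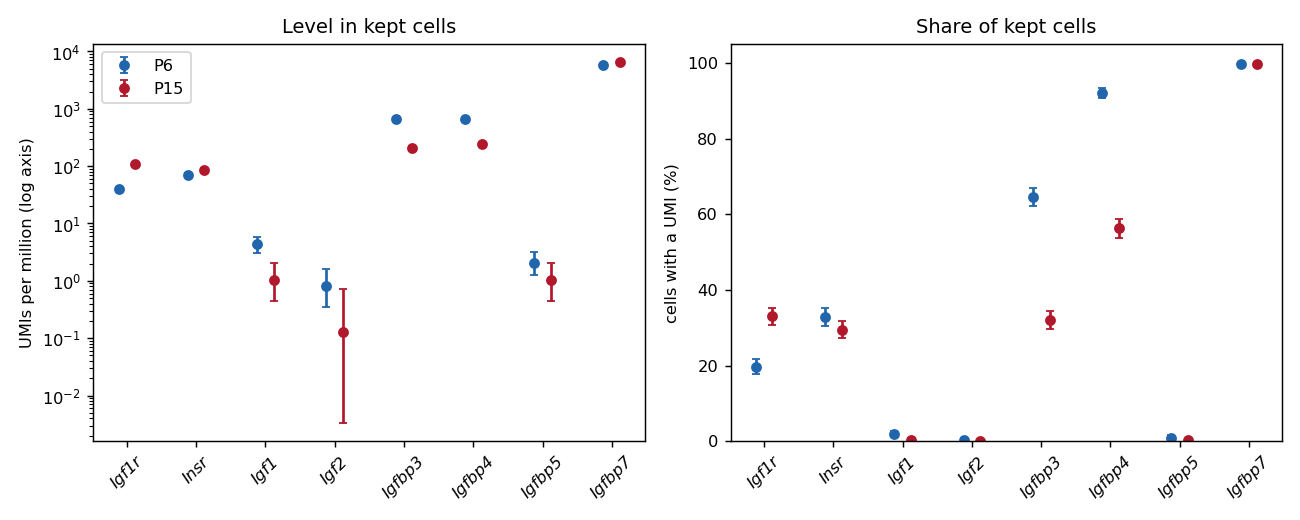
CPM (left, log axis) and percent of kept cells with at least 1 UMI (right, linear axis) for the 8 members at P6 (blue, 1585 cells) and P15 (red, 1673 cells), with 95% counting intervals. Igf1r rises from 39.2 to 107 CPM while Igfbp3 falls from 664 to 210 and Igfbp4 from 655 to 244, and levels should be compared between the ages and not between genes.

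Igf1r encodes the receptor that carries most growth factor signals of the axis. Its level was 39.2 CPM at P6 (95% interval 35.3 to 43.3, 381 UMIs) and 107 at P15 (99.95 to 115, 826 UMIs). The P15/P6 ratio was 2.74 (2.42 to 3.10), and 385 of 11274 genes had a higher ratio. The share of kept cells with an Igf1r UMI was 19.6% at P6 and 33.0% at P15, although P15 cells were shallower. After each cell was thinned to 2000 UMIs, with 13 P6 and 172 P15 cells left out as too shallow, the shares were 8.72% and 17.7% and the ratio of levels was 2.14.

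The insulin receptor gene Insr stood at 71.4 CPM at P6 (66.2 to 76.9) and 84.6 at P15 (78.2 to 91.3). Its ratio of 1.18 (1.06 to 1.32) was near that of the median gene, with 4571 genes above it. The share of cells with an Insr UMI was 32.8% at P6 and 29.5% at P15, and at 2000 UMIs per cell the ratio of levels was 0.981. The thinned levels were 79.8 CPM at P6 (70.3 to 90.3) and 78.3 at P15 (68.6 to 89.0), so no direction was drawn for Insr.

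Igf1, the ligand gene, gave 42 UMIs in 29 of 1585 kept cells at P6 and 8 UMIs in 7 of 1673 cells at P15. The levels were 4.32 (3.11 to 5.84) and 1.04 (0.448 to 2.04) CPM, with a ratio of 0.240 (0.0975 to 0.518). In labelled cells alone the ratio was 0.536, from 5 UMIs at P15. Igf2, the imprinted second ligand, gave 8 UMIs at P6 and 1 at P15, with a ratio of 0.158 whose interval ran from 0.00355 to 1.18.

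Igfbp3, the main carrier of the growth factors in blood, was the most reduced of the abundant members. It fell from 664 CPM at P6 (647 to 680) to 210 at P15 (200.1 to 221), a P15/P6 ratio of 0.317 (0.300 to 0.335). The share of cells with an Igfbp3 UMI was 64.5% at P6 and 32.0% at P15, and 44.6% and 22.5% at 2000 UMIs per cell. Only 352 of 11274 genes had a lower ratio.

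Igfbp4, a binding protein that mostly restrains ligand action, was close behind. Its level was 655 CPM at P6 (639 to 671) and 244 at P15 (233 to 255), a ratio of 0.373 (0.354 to 0.392) with 436 genes below it. A UMI of Igfbp4 was found in 92.2% of P6 cells and 56.2% of P15 cells, or 71.9% and 35.6% at equal depth.

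Igfbp7 was found in nearly every cell, with a UMI in 99.7% of kept P6 cells and 99.6% of kept P15 cells. Its level was 5876 CPM at P6 (5828 to 5924) and 6480 at P15 (6423 to 6537), a ratio of 1.10 (1.09 to 1.12). This was close to the ratio of the median gene, and with median scaling the ratio was 0.979, so no direction was drawn. Igfbp5, a binding protein found in matrix, gave 20 UMIs at P6 and 8 at P15, with a ratio of 0.505 (0.192 to 1.20). In labelled cells alone the Igfbp5 ratio was 1.25 and over every barcode with at least 200 genes 1.28, so no direction was drawn.

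The 3 abundant binding proteins were spread over cells in different ways. For Igfbp3, the 10% of kept cells with the most UMIs held 54.3% of all its UMIs at P6 and 67.9% at P15, with up to 62 UMIs in 1 cell at P6. For Igfbp4 these cells held 28.4% and 39.9%, and for Igfbp7 22.4% and 26.2%. Igfbp3 was thus uneven between cells at both ages, whereas Igfbp7 was broadly shared.

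Markers of other cells also differed between the kept cells of the libraries. Genes of the pericyte and mural list summed to 11.6 CPM at P6 and 298 at P15, with 7 of 8 list genes found at P6 (Cspg4 at 0) and 8 of 8 at P15. The astrocyte and Müller glia list summed to 343 and 1268, with Pax2 at 0 in both libraries and Aqp4 at 0 at P6, and the red blood cell list to 22.1 and 171. The microglia list summed to 4.32 and 10.8 and the fibroblast list to 1.54 and 14.4. Of the fibroblast list, 3 of 8 genes were found at P6 and 5 of 8 at P15, with Col1a1, Lum and Mfap5 at 0 in both. The retinal neuron list was lower at P15, at 25.6 against 51.4, while the endothelial list went from 8566 to 13839. Of the neuron list, 7 of 8 genes were found at P6 and 4 of 8 at P15. Neurod1, whose UMIs fail the quality filter, was at 0 in both. Without the 54 P6 and 553 P15 cells that had a pericyte or mural UMI, the P15/P6 ratios were 2.68 for Igf1r, 1.12 for Insr, 0.350 for Igfbp3, 0.381 for Igfbp4 and 1.10 for Igfbp7. The nuclear RNA Malat1 was 2.63-fold higher at P15 (2.60 to 2.65). Genes spanning at least 100 kb, as Igf1r and Insr do, had a median ratio of 1.18 against 1.06 for genes under 10 kb. The part of Malat1 and of gene span in the Igf1r ratio was not tested.

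Within clusters, where the named population was held fixed, Igfbp3 and Igfbp4 were lower at P15 in all 9. Their Venous values rest on 0 UMIs in 2 P15 cells. In the other 8 clusters both genes were at least 1.5-fold lower in each, as were 1.19% of the 4118 genes with at least 10 UMIs in every one of these clusters. Igfbp7, the only other member with enough UMIs to be read this way, was not. The Igfbp3 ratio ran from 0.107 (0.0485 to 0.204) in Primitive cells and 0.112 (0.0508 to 0.214) in Capillary cells to 0.525 (0.354 to 0.757) in Arterial cells. The Igfbp4 ratio ran from 0.233 (0.164 to 0.324) in Cap-Arterial cells to 0.637 (0.452 to 0.874) in Proliferative cells.

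The clusters thus differed in how far each binding protein was reduced. Tip cells, which lead vessel sprouts, went from 1062 to 208 CPM of Igfbp3 (ratio 0.196, 0.148 to 0.254) and from 708 to 310 of Igfbp4 (0.438, 0.347 to 0.546). Cap-Venous cells, the most numerous cluster, went from 394 to 161 for Igfbp3 (0.409, 0.337 to 0.493) and from 705 to 246 for Igfbp4 (0.349, 0.299 to 0.406). The plot of age ratios within clusters shows both genes below 1 in every cluster drawn.

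Igf1r was higher at P15 beyond counting error in 5 of the 8 clusters with at least 10 of its UMIs. Capillary cells had a ratio of 3.68 (2.25 to 5.95) and Cap-Arterial cells one of 2.76 (1.74 to 4.39). Stalk cells followed at 2.39 (1.51 to 3.74), Cap-Venous cells at 1.85 (1.33 to 2.56) and Tip cells at 1.83 (1.10 to 2.96). Of genes with at least 50 UMIs, 14.8% (Cap-Arterial) to 20.2% (Stalk) were at least 1.5-fold higher within these 5 clusters, with 16.2% in Capillary, 17.6% in Cap-Venous and 16.4% in Tip cells, and 18% were in Proliferative cells. In Proliferative cells the ratio was 0.749, from 2 UMIs at P15, with an interval of 0.0877 to 2.88. Malat1 was also higher at P15 in each of the 9 clusters, by 1.07-fold in Arterial to 2.995-fold in Stalk cells. Insr was higher beyond counting error in Capillary cells, with a ratio of 1.65 (1.03 to 2.56), and in none of the 7 other clusters read. After thinning to 2000 UMIs per cell this was so in 0 clusters.

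Igfbp7 went in both directions within clusters. It was higher at P15 in Primitive cells (1.54, 1.43 to 1.65), Tip cells (1.35, 1.29 to 1.41), Stalk cells (1.09, 1.04 to 1.14) and Cap-Arterial cells (1.06, 1.003 to 1.11). It was lower in Capillary cells (0.827, 0.762 to 0.896), Arterial cells (0.825, 0.697 to 0.971), Proliferative cells (0.902, 0.824 to 0.986) and the 2 Venous cells (0.526, 0.346 to 0.768).

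**Figure D2:**
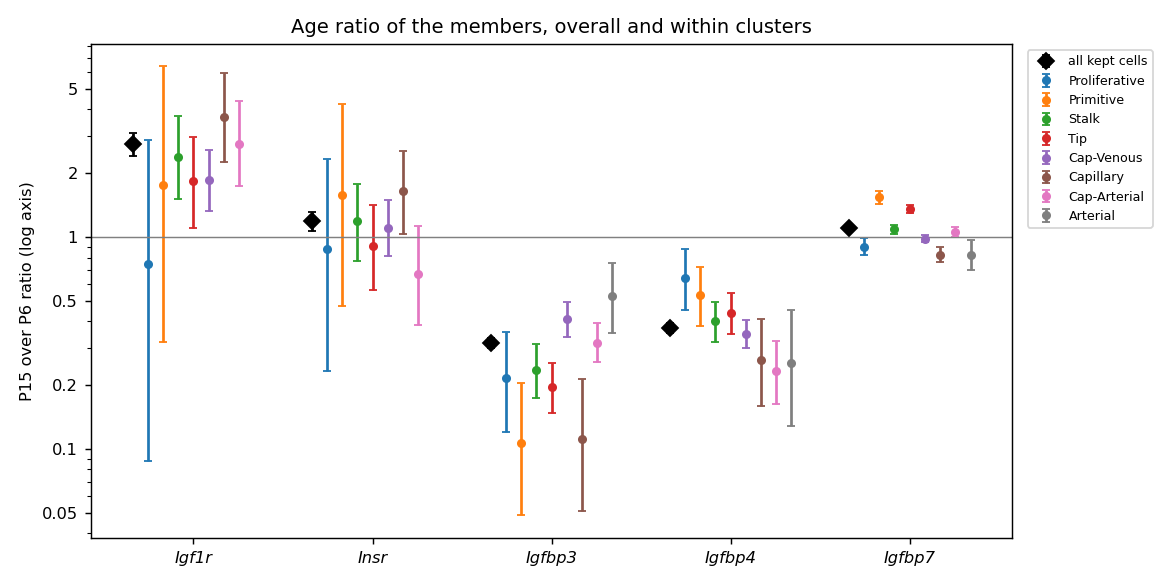
P15/P6 ratio (log axis, grey line at 1) of 5 members in all kept cells (black diamonds) and within 8 clusters of labelled cells (colours), with 95% conditional binomial intervals; Venous cells and values with under 10 UMIs or none at P15 are left out. All Igfbp3 and Igfbp4 points lie below 1, the Igf1r points lie above 1 except in Proliferative cells, and the Igfbp7 points lie on both sides.

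When the other kept P15 cells were given labels predicted from their 15 nearest labelled neighbours, without the members among the genes used, the directions of Igfbp3, Igfbp4 and Igf1r were read again. Of 438 labelled cells held out in turn, the prediction gave 69.2% their own label. Igfbp3 and Igfbp4 were lower in 9 clusters, with Igfbp3 ratios of 0.157 in Proliferative to 0.406 in Cap-Arterial cells outside Venous. Igf1r was higher beyond counting error in 5 clusters, from 2.18 in Cap-Arterial to 4.14 in Capillary cells. Insr was higher in 2, Capillary (1.82, 1.23 to 2.66) and Stalk cells (1.43, 1.06 to 1.93). For Igfbp7 the Cap-Arterial difference was within counting error (1.03, 0.992 to 1.06), and Cap-Venous cells were higher at P15 (1.06, 1.04 to 1.08).

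Across clusters at P6, both receptors were highest in Capillary cells by CPM of all UMIs. Igf1r stood at 82.2 CPM there (43 UMIs in 149 cells), 2.25-fold the level of the other labelled P6 cells (1.60 to 3.10), and Insr at 161, which was 2.46-fold (1.93 to 3.09). At least 1.5-fold higher in P6 Capillary cells were 23% of the 9834 genes tested. Igf1r in Venous cells, at 70.3, was not told apart from Capillary cells by counting error. At 2000 UMIs per cell Venous cells stood higher for Igf1r, at 131 CPM (65.4 to 234, 11 UMIs) against 82.8 (53.0 to 123) in Capillary cells. The share of cells with an Igf1r UMI was also larger in Venous cells, 35.7% against 22.8%. No order of these 2 clusters was therefore drawn for Igf1r at P6. At the low end, Primitive cells held 13.8 CPM of Igf1r (0.331, 0.174 to 0.573) and 25.5 of Insr (0.338, 0.215 to 0.507). In these cells 43.1% of genes were at least 1.5-fold lower.

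Arterial cells held few receptor UMIs. None of 40 P6 Arterial cells had an Igf1r UMI, and counting error allowed at most 0.471 times the level of the other cells. Insr had 6 UMIs there, 0.426 times the other cells (0.156 to 0.931). At P15, the 11 Arterial cells had 1 Igf1r UMI and no Insr UMI. At least 1.5-fold lower in P6 Arterial cells were 24.8% of genes. The retinal neuron list summed to 1199 CPM in P6 Arterial cells, with 4 of its 8 genes found, against 51.4 over kept cells, and 2.5% of these cells had at least 3 of its genes. The astrocyte and Müller glia list summed to 1564 CPM in P6 Arterial and 1594 in P6 Cap-Arterial cells, against 343 over kept cells, and to 3443 and 2870 at P15, against 1268. Only 1 of its 8 genes was found in Arterial cells at either age, and 4 of 8 in Cap-Arterial cells. None of these cells had 3 of its genes, so the sums were not read as a glial signature. The part of these lists in the Arterial and Cap-Arterial values, Igfbp3 included, was not tested.

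The Capillary cells stood out for both receptors at P15 as well. Igf1r stood at 303 CPM in 42 cells, 3.67-fold the other labelled P15 cells (2.43 to 5.37), and Insr at 265, which was 3.74-fold (2.40 to 5.64), where 18.7% of 5833 genes were at least 1.5-fold higher. Cap-Arterial cells followed for Igf1r at 132 (1.52-fold, 1.05 to 2.16), apart from 2 UMIs in the 2 Venous cells. In P15 Primitive cells Igf1r was at 0.248 times the other cells (0.0507 to 0.735, 3 UMIs), and Insr was not told apart from them (0.487, 0.156 to 1.16, 5 UMIs), where 36.2% of genes were at least 1.5-fold lower. At 2000 UMIs per cell the Capillary ratio of Igf1r at P15 was 2.17, from 27 cells.

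Capillary cells also differed in quality measures. They had the lowest median depth at P6, 3204 UMIs, and the highest median mitochondrial share, 2.51% against 1.24% over kept cells. Malat1 was 1.54-fold higher in them than in other labelled cells at P6 and 1.56-fold higher at P15. Of genes spanning at least 100 kb, 40.0% were at least 1.5-fold higher in P6 Capillary cells, against 12.5% of genes under 10 kb, and at P15 41.0% against 8.96%. How far gene span, depth and mitochondrial share take part in the receptor values was not tested. Malat1 at P6 was lowest in Primitive cells, 711 CPM, and Proliferative cells, 4476, which were also low in Igf1r, and highest in Arterial cells, 25795, which had no Igf1r UMI.

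**Figure D3:**
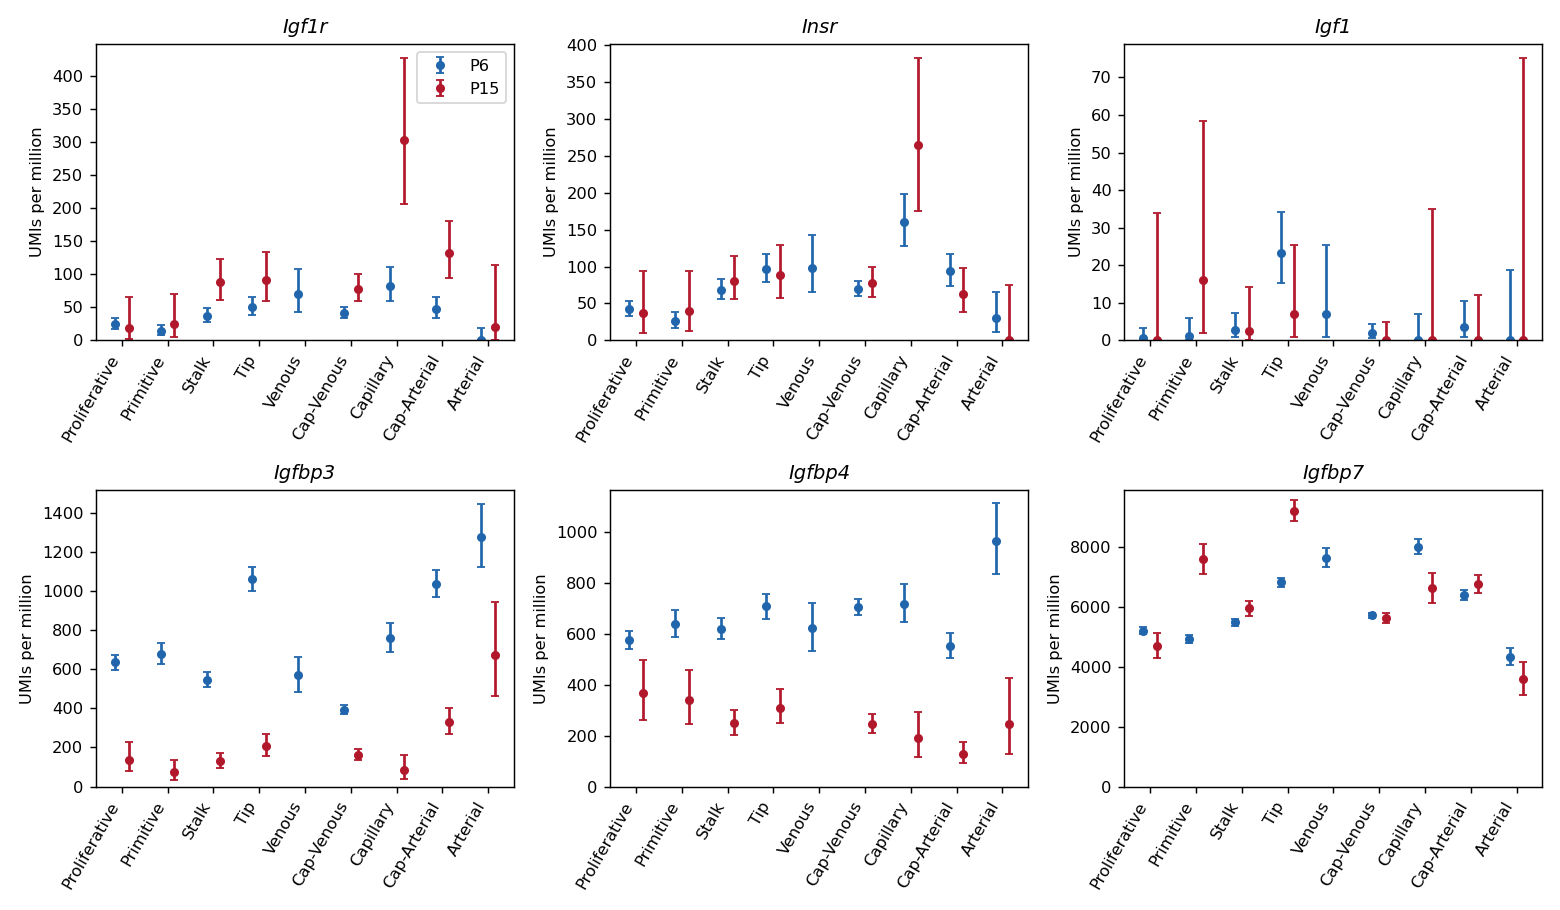
CPM (linear axes from 0) of 6 members in the 9 labelled clusters at P6 (blue) and P15 (red), with exact Poisson 95% intervals; the 2 P15 Venous cells are left out. Igf1r and Insr have their highest points in Capillary cells. At P6 no order is drawn between Capillary and Venous cells for Igf1r. For Insr at P6 none is drawn among Capillary, Tip, Venous and Cap-Arterial cells. Igf1 at P6 is highest in Tip cells. Igfbp3 is highest in Arterial cells at P15, while at P6 no order is drawn among Arterial, Tip and Cap-Arterial cells. Igfbp7 at P6 is 8029 in Capillary cells, not told apart from Venous cells, and at P15 it is highest in Tip cells at 9230.

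Igf1 at P6 was concentrated in Tip cells. Of its 42 UMIs, 26 were in 15 of 170 Tip cells, which gave 23.2 CPM (15.2 to 34.0) and 12.4-fold the other labelled P6 cells (6.39 to 24.7). The share of Tip cells with an Igf1 UMI was 8.82%, against 0 to 2.38% in the other clusters, and at equal depth it was 4.14%. All 29 kept P6 cells with an Igf1 UMI had at least 3 endothelial markers, as did 99.3% of all kept P6 cells. None had 3 markers of the pericyte, neuron, glia, microglia, fibroblast or red blood cell lists. At most 0.189% of all kept P6 cells had 3 markers of any of these lists, so neither count sets the cells with Igf1 apart. Of the 29 cells, 1 had a microglia marker, 2 a pericyte or mural marker and 19 a glia marker. Over all kept P6 cells, 63.5% had a UMI of the glia list, 3.41% of the pericyte and mural list and 1.89% of the microglia list. The share with a glia marker was thus near that of all kept cells, but the level was not. The glia list summed to 490 CPM in the cells with Igf1 against 339 in other kept P6 cells, and to 169 in P6 Tip cells. The part of glial RNA in the Igf1 values was not tested. At P15 the 46 Tip cells had 2 Igf1 UMIs, which left the level between 0.852 and 25.4 CPM.

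Igf2 UMIs at P6 were in Arterial cells (5 UMIs in 3 of 40 cells), Cap-Arterial cells (2 UMIs) and Cap-Venous cells (1 UMI). H19, the imprinted RNA gene beside Igf2, had 16 UMIs in 5 Arterial cells and 17 in 5 Cap-Arterial cells of its 43 UMIs at P6, and 3 Arterial cells had UMIs of both. H19 had no row in the P15 table, which was not read as a count of 0.

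Igfbp3 at P6 was highest in Arterial cells at 1280.4 CPM, 1.97-fold the other labelled cells (1.73 to 2.23), followed by Tip cells at 1062 (1.74-fold, 1.63 to 1.85) and Cap-Arterial cells at 1039 (1.66-fold, 1.54 to 1.78). Arterial cells were told apart from Tip cells by counting error (1.21-fold, 1.05 to 1.38), and Tip cells were not told apart from Cap-Arterial cells. At 2000 UMIs per cell Arterial cells stood at 1100 CPM (882 to 1355), Cap-Arterial cells at 1043 (935 to 1161) and Tip cells at 1006 (902 to 1119). These intervals overlap, so no order was drawn among the 3 clusters. In Tip cells 7.49% of genes were at least 1.5-fold higher, in Cap-Arterial cells 16.4% and in Arterial cells 24.4%. Cap-Venous cells were lowest at 394 (0.514, 0.481 to 0.549), where 7.96% of genes were at least 1.5-fold lower. At P15 the arterial end again held most Igfbp3, with 672 in 11 Arterial cells (3.84-fold, 2.61 to 5.49) and 330 in Cap-Arterial cells (2.03-fold, 1.60 to 2.55). The share of genes at least 1.5-fold higher was 22.3% in P15 Arterial and 11.2% in P15 Cap-Arterial cells. The P15 Arterial ratio was 2.19 with predicted labels and 2.71 without cells that had a pericyte or mural UMI. Primitive cells, at 72.6 (0.376, 0.170 to 0.720), and Capillary cells, at 85.1 (0.444, 0.202 to 0.852), were lowest at P15 apart from the 2 Venous cells, where 36.2% and 21.6% of genes were at least 1.5-fold lower. Capillary cells had been above the others at P6, at 761 (1.16-fold, 1.04 to 1.28). Stalk cells at P15 were at 0.647 times the others (0.473 to 0.870), where 9.5% of genes were at least 1.5-fold lower. Tip cells at P15, at 208, were not told apart from the others (1.13-fold, 0.845 to 1.498).

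Single cells rich in Igfbp3 were found in clusters of high and of low level at P6, with up to 62 UMIs in a Cap-Arterial, 61 in a Tip, 57 in a Venous, 56 in a Stalk and 38 in an Arterial cell. A UMI was found in 80.6% of Primitive, 77.8% of Proliferative and 69.0% of Venous cells, and in 62.5% of Arterial, 62.9% of Tip and 63.6% of Cap-Arterial cells. No order was read from these shares, which go against the levels.

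Igfbp4 at P6 spanned less between clusters than Igfbp3. It ran from 553 CPM in Cap-Arterial cells (0.832, 0.755 to 0.915) to 967 in Arterial cells (1.49-fold, 1.28 to 1.72), a 1.75-fold span, against 3.25-fold for Igfbp3. At 2000 UMIs per cell Arterial cells were again highest, at 1113 CPM of Igfbp4, but Cap-Arterial cells stood at 689 against 671 over kept cells, and Proliferative cells were lowest at 589. At P15, leaving out the 2 Venous cells, Cap-Arterial cells were lowest at 129 (0.485, 0.341 to 0.673, where 11.9% of genes were at least 1.5-fold lower) and Proliferative cells highest at 367 (1.53-fold, 1.08 to 2.11, where 14.6% of genes were at least 1.5-fold higher), not told apart from Primitive cells at 339. Arterial cells at P15, at 244, were not told apart from the others (0.993, 0.510 to 1.75), from 12 UMIs and with an interval that holds the P6 ratio.

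Igfbp7 was highest at P6 in Capillary cells, 8029 CPM (1.40-fold, 1.35 to 1.44), and lowest in Arterial cells, 4347 (0.737, 0.688 to 0.788). Capillary cells were not told apart from Venous cells at 7648 (1.05-fold, 0.997 to 1.11), so no order of these clusters was drawn. At P15 Tip cells were highest at 9230 (1.55-fold, 1.48 to 1.62, where 9.34% of genes were at least 1.5-fold higher). Arterial cells were again lowest at 3586 (0.555, 0.475 to 0.644, where 32% of genes were at least 1.5-fold lower). They were not told apart from the 2 Venous cells at 4025. No member with at least 50 UMIs was 1.5-fold higher in P6 Proliferative, Primitive or Stalk cells, as were 10.3%, 5.65% and 3.89% of genes. At P15 none was 1.5-fold higher in Stalk or Cap-Venous cells, as were 5.28% and 3.43%, and none was 1.5-fold lower in Cap-Venous cells, as were 6.09%. Of the 20 Igfbp5 UMIs at P6, 10 were in the 414 Cap-Venous cells, which gave 3.76 CPM and 3.28-fold the level of the others (1.17 to 9.56). Cap-Arterial cells stood higher at 4.78 CPM, from 4 UMIs (3.01-fold, 0.721 to 9.58). They were not told apart from Cap-Venous cells, and no order was drawn.

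Cells with one member were compared with cells without it at 2000 UMIs per cell. At P15, 11.3% of cells with an Igfbp3 UMI also had an Igf1r UMI (8.10% to 15.1%), against 19.5% of cells without (17.3% to 21.9%). At P6 the shares were 7.56% (5.71% to 9.77%) and 9.64% (7.77% to 11.8%), whose intervals overlap. Cells with an Igf1r UMI had an Insr UMI in 15.3% at P6 and 15.1% at P15, close to the 14.1% and 13.9% of cells without Igf1r. Across cells the Pearson r of Igf1r and Igfbp3 was -0.09 at P6 (1560 cells) and -0.13 at P15 (1673 cells), a weak value in sparse counts.

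Among 5869 genes, those most like a member across the 1560 labelled P6 cells were named by Pearson r, which cells of one library share with depth and cluster. Igfbp7 was closest to Sparc (r = 0.59 at P6, 0.55 at P15), the gene of a secreted matrix glycoprotein, then to Slc3a2 (0.38 and 0.25), an amino acid transporter subunit, and Sparcl1 (0.36 and 0.38), a relative of Sparc. Igfbp3 was closest to Sat1 (0.45 and 0.31), which encodes an enzyme of polyamine breakdown, and to the calcium binding protein genes S100a11 (0.37 and 0.14) and S100a6 (0.33 and 0.06). The latter values were much lower at P15.

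For the other members r was under 0.2 at P6, which in sparse counts is no finding. Igf1r came with Slc7a5 (0.18 and 0.21), which encodes the amino acid transporter that pairs with Slc3a2, Tcf4 (0.18 and 0.20) and Malat1 (0.17 and 0.20). Insr came with Malat1 (0.19 and 0.15), Tcf4 (0.18 and 0.15) and Sparc (0.18 and 0.01). Igfbp4 came with the glycolytic enzyme genes Ldha (0.15 and 0.002) and Pkm (0.15 and 0.04) and the collagen chaperone gene Serpinh1 (0.15 and 0.08).

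Barcodes outside the kept cells showed where these RNAs were found without endothelial markers. At P6, 41 barcodes had at least 3 retinal neuron markers and under 3 endothelial markers, with a median of 3264 UMIs. In them Igfbp7 stood at 81.3 CPM, Igfbp4 at 46.4 and Igfbp3 at 34.8, far under the 5876, 655 and 664 of kept cells, with a UMI in 26.8%, 19.5% and 14.6% of barcodes. Igf1r was higher there than in kept P6 cells, at 134 CPM (84.6 to 200.3) against 39.2, with a UMI in 39.0% of barcodes, and Insr was lower at 23.2 (6.33 to 59.4).

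At P15, 31 barcodes had at least 3 pericyte and mural markers and under 3 endothelial markers, with a median of 3593 UMIs. They held 8476 CPM of Igfbp7 (7952 to 9026), above the 6480 of kept cells, and 174 of Igfbp4 (106 to 269) against 244. None had an Igfbp3 UMI, which allows up to 26.1 CPM against 210, and Igf1r and Insr had 2 UMIs each. Without cells that carried a pericyte or mural UMI, the Igfbp7 ratio between the ages was 1.10, as in all kept cells.

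**Figure D4:**
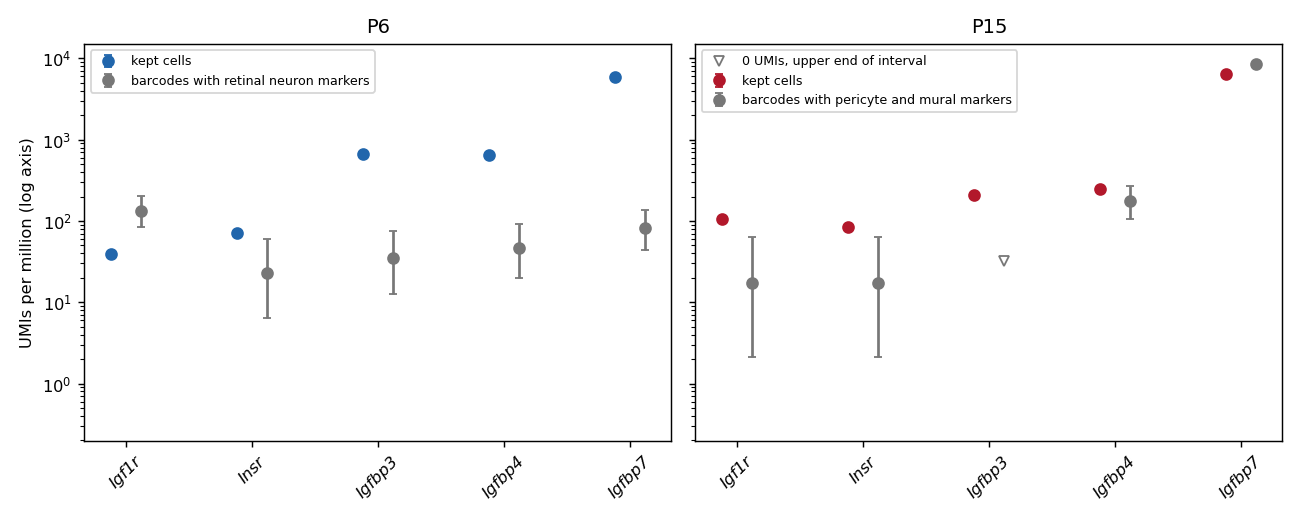
CPM (log axis) of 5 members in kept cells (coloured points) and in barcodes with markers of another cell type and under 3 endothelial markers (grey), for 41 retinal neuron barcodes at P6 (left) and 31 pericyte and mural barcodes at P15 (right), with 95% counting intervals and a triangle at the upper end of the interval for 0 UMIs. The binding proteins are far lower in neuron barcodes than in kept cells, Igf1r is higher there, and Igfbp7 stands at 8476 in pericyte and mural barcodes against 6480 in kept cells.

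The other genes of the axis were read from a list of 59, of which 39 had at least 50 UMIs over both libraries. Of these, 10 were at least 1.5-fold higher at P15 and 3 were lower, against 19.7% and 12.6% of all genes tested, and the median ratio of the 39 was 1.19 against 1.09. With median scaling 5 were higher and 4 were lower. Neither count is read as particular to the list.

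The largest ratios belonged to genes of secreted proteases. Htra1, a serine protease that can cut binding proteins, rose from 65.7 to 250 CPM, a P15/P6 ratio of 3.80 (3.48 to 4.17), and was higher beyond counting error in 7 of 8 clusters. Adamts1, a matrix metalloprotease, rose from 34.5 to 145, a ratio of 4.21 (3.72 to 4.77), and was higher in 5 of 8. Both were highest in Arterial cells at P6. Stc2, which encodes stanniocalcin 2, an inhibitor of the protease PAPP-A, fell from 14.3 to 3.11, a ratio of 0.218 (0.135 to 0.338). With the cluster held fixed, Stc2 was lower beyond counting error in 1 of 6 clusters. Pappa itself had no row in the P15 table and no UMI in kept P6 cells.

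Igf2r, the receptor that takes up IGF2 for breakdown, was lower at P15, at 18.7 CPM against 30.6 (0.610, 0.496 to 0.746). Among adaptors, Grb10, an inhibitor of both receptors, was lower (93.0 to 59.9, ratio 0.644, 0.575 to 0.721) and its relative Grb14 was higher (20.8 to 32.9, ratio 1.59, 1.31 to 1.92). These differences were mostly within counting error when the cluster was held fixed. Igf2r was lower beyond it in 2 of 7 clusters, Grb10 lower in 1 of 8 and Grb14 higher in 0 of 7. Irs1 and Irs2, the main docking proteins of the receptors, were listed at 0 UMIs in kept cells of both libraries. Counting error alone would allow up to 0.308 CPM at P6 and 0.389 at P15. Since the annotation behind the counts was not given, this was not read as absence of these RNAs. The part of the annotation in the 0 counts was not tested. Igfbp2 had 40 UMIs at P6 and 6 at P15, a ratio of 0.189 (0.0656 to 0.449), and was under the minimum of 50.

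Of 19 genes of PI3K, AKT and mTOR, 2 were higher at P15, 0 were lower and 17 were neither, against 19.7% and 12.6% of all genes tested, and their median ratio was 1.14 against 1.09. Pik3r3, a regulatory subunit of PI3K, had a ratio of 2.32 (1.79 to 3.02), and was higher beyond counting error in 1 of 5 clusters. The 17 that were neither ran from Eif4ebp1 at 0.750 (0.675 to 0.833), a repressor of translation held off by mTOR, to Akt2 at 1.46 (1.08 to 1.99).

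Of 9 FoxO factors and targets, 5 were higher and 0 lower, against 19.7% and 12.6% of all genes tested, with a median ratio of 1.59 against 1.09. Foxo1, a factor that keeps endothelial cells quiescent, went from 54.5 to 86.8 CPM (1.59, 1.42 to 1.79), and Foxo4 had a ratio of 1.59 (1.12 to 2.27). The targets were Ccng2, a cyclin linked to cell cycle exit (2.57, 2.29 to 2.88), Pik3ip1, an inhibitor of PI3K (1.98, 1.73 to 2.27), and Sesn3, a stress response gene (1.62, 1.34 to 1.96). Txnip, Foxo3, Cdkn1b and Sesn1 lay between 1.06 and 1.24. With median scaling Ccng2 and Pik3ip1 stayed past 1.5-fold and Foxo1, Foxo4 and Sesn3 did not. Within clusters, Ccng2 was higher beyond counting error in 4 of 9, and Foxo1 and Pik3ip1 each in 3 of 9. Sesn3 was higher in 1 of 7 and Foxo4 in 1 of 4. The list was assembled with earlier results of these data known, and its count is not independent support for a direction.

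**Figure D5:**
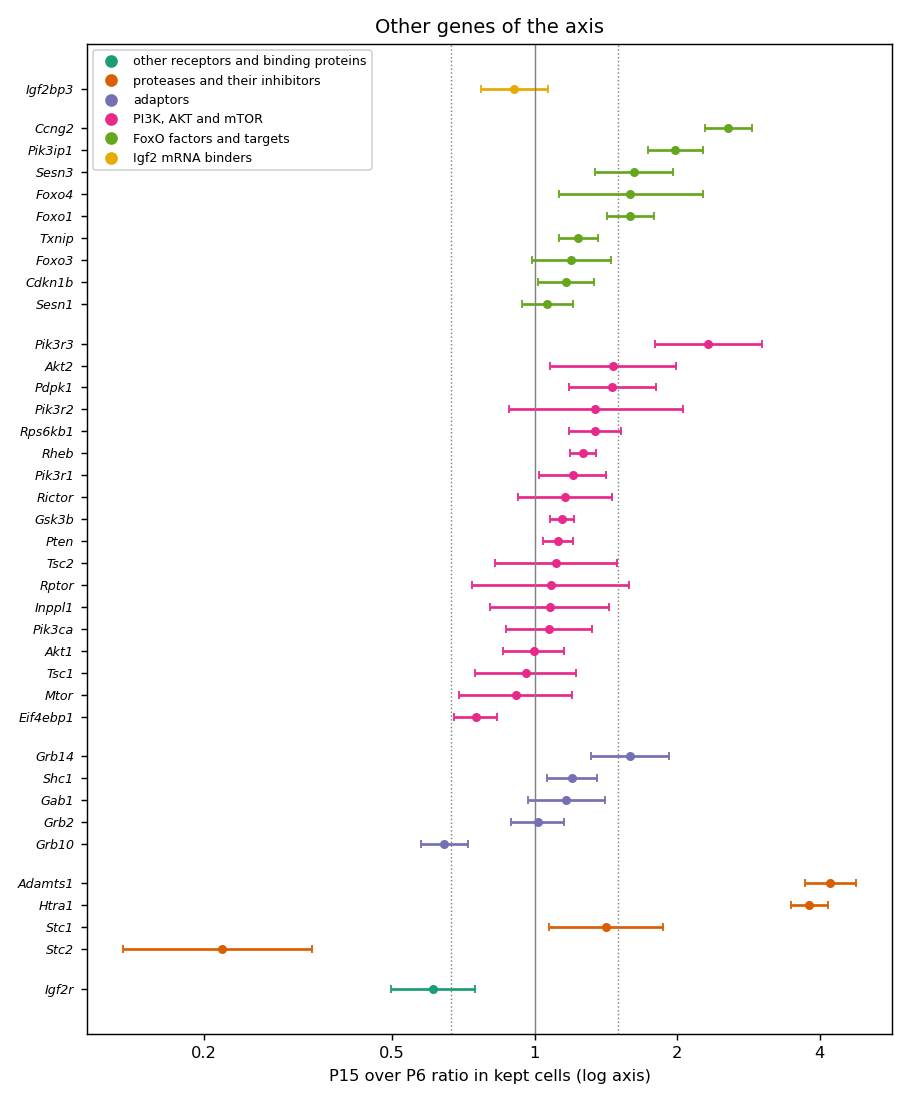
P15/P6 ratio in kept cells (log axis) of other genes of the axis with at least 50 UMIs (1 of the 39 is not shown), coloured by role, with 95% conditional binomial intervals, a solid line at 1 and dotted lines at 1.5-fold in each direction. Htra1 and Adamts1 lie farthest to the right at 3.80 and 4.21, Stc2 farthest to the left at 0.218, and most PI3K, AKT and mTOR genes lie between the dotted lines.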

How the data were processed

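The authors deposited 1 sparse matrix of raw counts (UMIs of a gene in a barcode) per age, with no normalization. The submitters' processing notes name Seurat 3.0 and mm10, and the aligner and annotation behind these counts were not given in the sources used here. Gene identifiers were matched to symbols with a table of gene names (22695 of 22734 identifiers at P6 and 21745 of 21785 at P15), and rows of a symbol were added. Cells had 200 to 3500 genes, at most 5% mitochondrial UMIs and no Hbb-bt, Neurod1 or Cd63 UMI, or a cluster label from the source data of the study. No doublet caller was run, and leaving out the 1% of cells with the most UMIs stands in its place.

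UMIs were summed over cells and divided by all UMIs of those cells. Levels have exact Poisson intervals, ratios have conditional binomial ones and shares of cells have Clopper-Pearson ones, each at 95%, and a count of 0 was bounded with 3 counts. Depth was 9729405 UMIs in kept P6 cells and 7709840 in kept P15 cells. With 1 library per age no test was run and no p-value was made from cells. Likeness used the natural log of 1 plus UMIs per 10000 in genes with at least 200 UMIs in labelled P6 cells. The members and gene lists were chosen with earlier results of these data known. Genes named beyond the members are the listed axis genes past 1.5-fold with at least 50 UMIs, the 3 genes most like each member, and cell markers, and Eif4ebp1, Akt2, Txnip, Foxo3, Cdkn1b, Sesn1, Irs1, Irs2, Igfbp2, Pappa, H19 and Malat1 by level were added after their values were seen. Alternatives changed the cells, the depth, the scaling (trimmed mean of M values from edgeR 4.0.16 in R 4.3.3, or the median of ratios), the weighting, the labels and the thresholds. One gene counted on the axis list is not reported here by name. The ratio step was tested on simulated data. Python 3.11.15, numpy 2.4.6, scipy 1.17.1, pandas 2.3.3 and scikit-learn 1.9.0 were used.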

Additional observations from a re-analysis of the deposited data

Results flagged for a closer look

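Igfbp7 differed between the ages in opposite directions among clusters with at least 30 cells at both ages, with a P15/P6 ratio of 1.54 within Primitive cells and 0.827 within Capillary cells. The difference between these clusters was not tested, since each age is 1 library.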

How the results depend on the processing

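Of 163 values under an alternative, for 29 results, 117 moved by less than their interval or count limit and 44 moved further. The other 2 fell on the other side of 1 from a main ratio that was beyond counting error. Igfbp5, whose interval holds 1, also went from 0.505 to 1.25 in labelled cells and 1.28 over every barcode. For the P15/P6 ratios, thinning to 2000 UMIs per cell gave 2.14 for Igf1r, 0.981 for Insr (the other side of 1, with overlapping intervals of the levels), 0.343 for Igfbp3, 0.352 for Igfbp4 and 1.05 for Igfbp7. Scaling by the median of ratios gave 1.05 for Insr, 0.281 for Igfbp3, 0.331 for Igfbp4 and 0.979 for Igfbp7 (the other side of 1). The trimmed mean of M values gave 0.289, 0.339 and 1.004 for the 3 binding proteins. Weighting P15 clusters as at P6 gave 2.24 for Igf1r, 1.04 for Insr, 0.249 for Igfbp3, 0.402 for Igfbp4 and 1.06 for Igfbp7. Labelled cells alone gave 2.40 for Igf1r and 0.281 for Igfbp3. Every barcode with at least 200 genes gave 0.276 for Igfbp3 and 1.21 for Igfbp7, equal weight per cell gave 0.336 and 1.03, and cells that passed the filter gave 1.07 for Igfbp7. Leaving out cells with a pericyte or mural UMI, an alternative chosen after seeing the data, gave 0.350 for Igfbp3. The cause was not tested for any of these.

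Between clusters, Igfbp3 in P6 Arterial cells over the others was 1.70 thinned and 1.73 with equal weight per cell. Igf1r in P15 Capillary cells was 2.17 thinned, Igfbp3 in P15 Arterial cells 2.19 with predicted labels, and Igfbp7 in P15 Tip cells 1.46 thinned and 1.47 with predicted labels. Clusters with Insr higher at P15 numbered 2 with predicted labels and 0 thinned, where fewer UMIs are counted. Genes 1.5-fold higher or lower, 2216 and 1425, were 4669 and 3257 among genes with a UMI in each library and 893 and 723 at a fold of 2. Axis genes higher at P15, 10 in all, were 4 at a fold of 2 and 5 with the median of ratios, and those lower, 3 in all, were 6 with at least 20 UMIs and 1 at a fold of 2. The values of Igf1, Igf2 and Igfbp5 rest on 8 or fewer UMIs at P15. No paired analysis was possible because each age is 1 library.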
